A study of Homo sapiens with 4 samples.

Results

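The genes for the subunits of Mediator and Integrator were examined, as every symbol made of MED and a number, with or without a final L, or of INTS and a number, together with CDK8, CDK19 and CCNC. This rule took 48 of the 19901 protein-coding genes in the count table, 33 for Mediator and 15 for Integrator, and used no measured value. Transient transcriptome sequencing (TT-Seq), which tags newly made RNA with 4-thiouridine (4sU) for some minutes and then purifies and sequences it, was used to ask whether acute KAP1 depletion changed nascent transcription. The cells were HCT116, a human colon cancer line, of the genotype KAP1_dTAG_CloneD5. This is a single clone in which KAP1 carries a degron tag, so that the ligand dTAG directs the protein to the proteasome. Both groups carried the tagged allele and were grown in medium with serum. They received either DMSO, the vehicle, or dTAG for 8 hr, followed by 500 μM 4sU for 10 min, with 2 libraries per group. No untagged or parental cells were part of these libraries.

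Mediator is a large assembly that carries signals from DNA-bound activators to RNA polymerase II (Pol II) at promoters. It is described as a head, a middle and a tail held together by a scaffold subunit, and it can bind a detachable kinase module built around cyclin C and CDK8 or CDK19. Integrator acts on Pol II shortly after initiation, where its endonuclease cleaves nascent RNA and its bound phosphatase PP2A removes phosphates from the elongation machinery, and it also forms the 3′ ends of small nuclear RNAs.

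Gene counts were between 93105627 and 102314741 per library, and the 12612 genes that reached 50 counts in each of the 4 libraries were tested. ERCC spike-in RNAs took 0.0265% of the counts in DMSO replicate 2 and 0.0103% to 0.0150% in the other libraries, and DMSO replicate 2 also differed from replicate 1 along GC content, so counts of calls are given with and without each library. TRIM28, the gene for KAP1, read 61.7 and 69.8 counts per 1000000 gene counts (CPM) with DMSO and 53.5 and 47.9 with dTAG, a log2 fold change of -0.37 ± 0.092 (SE), with an adjusted p of 0.019 (edgeR, quasi-likelihood, Benjamini-Hochberg). Since dTAG acts on the protein, this value does not check the depletion. All 6 colon epithelial markers (EPCAM, CDH1, KRT8, KRT18, KRT19 and CDX2) passed the count minimum. Of 6 markers of other cell types, only COL1A1 did, and PTPRC and CD3E, which define leukocytes, were listed with at most 1 and 3 counts in any library. ALB, PECAM1 and PDGFRB had 3 to 45 counts. The labels name the libraries of a group replicates, and the study's methods call them biological, so p-values measure the spread between 2 cultures of 1 clone. In bulk RNA, fewer cells making a transcript and less of it per cell cannot be told apart.

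Of the 48 genes, 46 passed the count minimum, 31 of Mediator and all 15 of Integrator, with between 272 and 119276 counts per library. The other two could not be assessed. MED7, a middle subunit, had 1 and 4 counts with DMSO and 0 and 1 with dTAG, and MED26, which links Mediator to elongation factors, had 0 in every library. Both gene intervals share their strand with another listed gene, HAVCR2 for MED7 and 2 genes without a symbol for MED26. In the whole table, 436 of 436 genes that lie wholly inside a gene on the same strand were listed at 0. Among genes that overlap none, 1581 of 13347 were (11.8%). A count of 0 in such an overlap therefore does not show that the gene was silent. MED7, which had some counts, is not among the 436, and genes that overlap another only in part were not counted apart.

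Most genes of both complexes were read at a level above that of the median gene. With DMSO, the median level of the 46 genes was 1.70 CPM per kilobase of gene, against 1.06 for all tested genes, and 34 of the 46 lay above that median. The range was 52.8-fold. MED28, a tail subunit, was highest, with 5.58 and 6.42 CPM per kilobase with DMSO and 5.96 and 5.73 with dTAG. INTS12, which binds the backbone subunit INTS1, was lowest, with 0.120 and 0.107 with DMSO and 0.131 and 0.134 with dTAG. The counted interval of INTS12 is 213 kb long and begins 187 kb upstream of the nearest RefSeq start, which lowers any level per length. MED17, the central head subunit, was next lowest at 0.176 CPM per kilobase, and it shares its strand with the overlapping ENSG00000284057. No other gene of either complex except MED12L was below the 25th percentile of tested genes, and only MED28 was above the 90th.

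**Figure D1:**
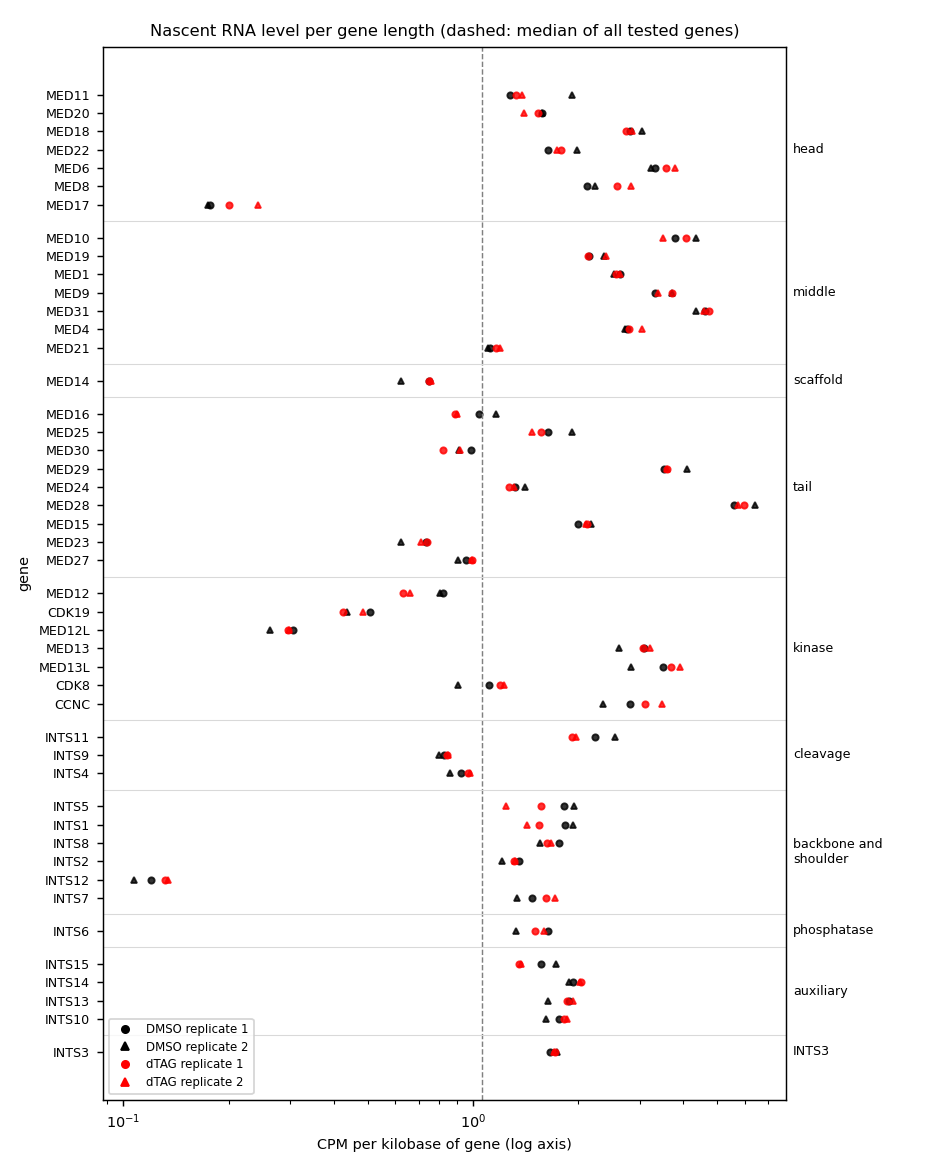
Level of each of the 46 tested genes in each library, in CPM per kilobase of gene on a log axis, grouped by module. DMSO libraries are black and dTAG libraries red, with replicate 1 as a circle and replicate 2 as a triangle, and the dashed line is the median of all tested genes, 1.06; MED28 is highest and INTS12 and MED17 stand lowest.

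After acute KAP1 depletion, with TMM scaling of the libraries, 2 genes of these complexes passed the test and none reached 1.5-fold. CCNC, which encodes cyclin C, the activating partner of CDK8 and CDK19, rose, and INTS1, the largest Integrator subunit and part of its backbone, fell. At an adjusted p under 0.05, these 2 of 46 were called (4.35%), against 7.10% of the 12612 tested genes. In single directions, 1 of 46 was called higher (3.44% of all tested genes) and 1 of 46 lower (3.66%). Both dTAG libraries lay above both DMSO libraries for 15 of the 46 (32.6%), where 28.1% of all tested genes did so, and below both for 9 (19.6%), where 30.7% did. For the other 22, the groups overlapped. Without DMSO replicate 1, 22 were called (47.8%), where that fit called 43.5% of all tested genes. Without DMSO replicate 2, 4 were called (CCNC, MED8, INTS1 and MED12, 8.70%), against 11.9% of all. The calls of CCNC and INTS1 did not hold without dTAG replicate 1 or without dTAG replicate 2. The median log2 fold change of the 46 genes was then 0.042 and 0.027, beside -0.011 and -0.0088 for all tested genes. With all 4 libraries, the share called was below that of all tested genes, and the share with both dTAG libraries above was close to it.

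The median log2 fold change was 0.018 for Mediator and 0.056 for Integrator, beside -0.015 for all tested genes. Both medians were below 0 with upper-quartile normalization (-0.057 and -0.017, beside -0.088 for all genes) and with the GC and length trends removed (-0.004 and -0.040), and both were 0.68 with ERCC totals as library sizes, beside 0.63 for all genes. With TMM scaling, estimates ran from -0.42 for INTS5 to 0.35 for CCNC, whereas 2.80% of all tested genes reached 1.5-fold. The 95% interval lay within 1.5-fold in either direction for 43 of the 46 (93.5%) and for 79.3% of all tested genes. The exceptions were MED11, MED17 and INTS5, with standard errors of 0.212, 0.162 and 0.143. For the remaining genes a change beyond 1.5-fold was outside the interval under this scaling, while only some smaller changes were. With ERCC totals as library sizes, most estimates passed 1.5-fold, with a median of 0.68 over the 46 genes. The median of all tested genes, 0.63, passed it too. Among the estimates were 0.97 for CCNC, 0.98 for MED8 and 0.99 for MED17. Others did not pass it, such as 0.31 for MED12. Standard errors over the 46 genes ranged from 0.082 to 0.212. For 24 of the 46 (52.2%), the fold change between groups was no larger than the difference between the 2 DMSO libraries, and the same held for 50.2% of all tested genes.

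**Figure D2:**
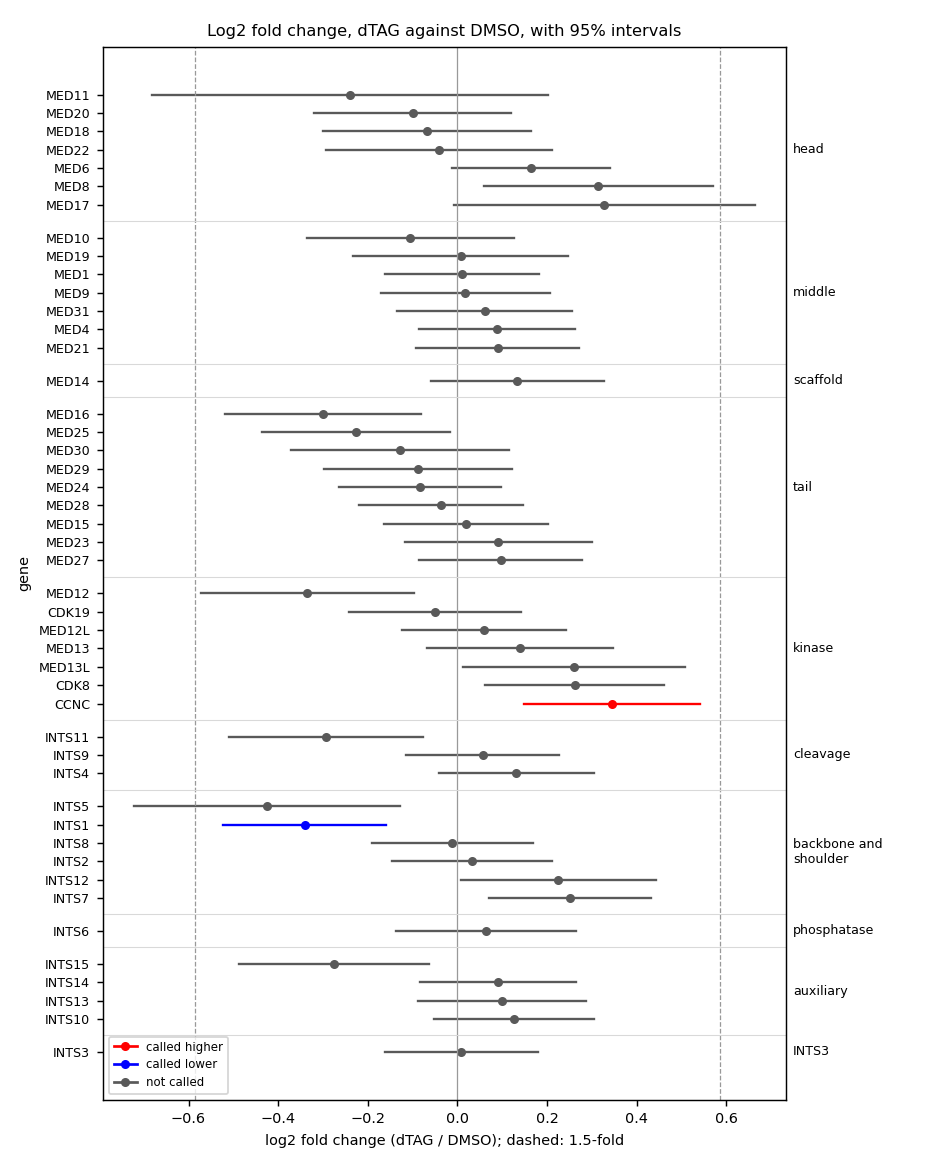
Log2 fold change, dTAG against DMSO, of each tested gene with its 95% interval from edgeR's quasi-likelihood fit, grouped by module, with dashed lines at 1.5-fold. CCNC at 0.35 is called higher and INTS1 at -0.34 lower, and the intervals of MED11, MED17 and INTS5 cross a dashed line.

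The promoters of the called genes, and of MED12, the kinase module gene with the lowest fold change, are given to show how far they differ in base composition. RefSeq promoters (250 bases before to 50 after the start) were found for 36 of the 48 genes. They are written 5′ to 3′ on the gene's strand, with capitals marking any match on either strand to the GC box GGGCGG, the ETS core CCGGAAG, the CCAAT box, the TATA box TATAAA or the YY1 core ATGGCGG. In GRCh38.p14 they lie on the minus strand at chr6:99568765-99569064 for CCNC and chr7:1504340-1504639 for INTS1, and on the plus strand at chrX:71118346-71118645 for MED12.
CCNC: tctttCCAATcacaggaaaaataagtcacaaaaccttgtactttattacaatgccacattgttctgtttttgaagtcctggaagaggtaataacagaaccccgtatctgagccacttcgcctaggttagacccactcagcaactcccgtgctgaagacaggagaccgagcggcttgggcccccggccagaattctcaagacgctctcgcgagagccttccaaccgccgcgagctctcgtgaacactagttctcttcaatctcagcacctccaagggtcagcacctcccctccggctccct
INTS1: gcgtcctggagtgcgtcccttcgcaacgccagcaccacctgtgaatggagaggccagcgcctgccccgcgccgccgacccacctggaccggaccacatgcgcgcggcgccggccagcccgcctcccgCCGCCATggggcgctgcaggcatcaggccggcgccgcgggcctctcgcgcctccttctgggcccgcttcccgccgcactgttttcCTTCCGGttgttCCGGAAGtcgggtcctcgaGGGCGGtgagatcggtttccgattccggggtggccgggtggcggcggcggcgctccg
MED12: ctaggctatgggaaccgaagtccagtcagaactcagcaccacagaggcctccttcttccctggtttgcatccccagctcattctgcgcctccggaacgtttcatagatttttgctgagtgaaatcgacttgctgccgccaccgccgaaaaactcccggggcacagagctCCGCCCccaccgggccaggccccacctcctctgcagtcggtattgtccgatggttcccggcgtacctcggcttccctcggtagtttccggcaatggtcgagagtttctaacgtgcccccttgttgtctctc
The CCNC promoter was 52.3% G and C with 14 CpG dinucleotides and held only a CCAAT box. The INTS1 promoter was 74.3% G and C with 42 CpG and held 1 GC box, 2 ETS cores and 1 YY1 core. The MED12 promoter was 59.0% G and C with 20 CpG and 1 GC box. Of the other genes of the set, some broke this order of promoter composition and fold change and some kept it. The CDK8 promoter was 67% G and C with 23 CpG and 1 GC box, at a log2 fold change of 0.26. Those of MED13L and MED16 were 78.3% and 52.7% G and C, at 0.26 and -0.30. In keeping with the order, those of INTS11 and INTS15 were 76.7% and 76.3% G and C, at -0.29 and -0.28. That of MED17 was 53.3%, at 0.33. How many of the 36 went each way was not counted. How promoter composition went with fold change was not tested.

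Over the 36 promoters, the ETS core was present in 11 (30.6%), against 18.9% of the promoters of tested genes and 14.4% of all 15297 promoters in the table. The YY1 core was present in 8 (22.2%), against 10.1% and 7.73%. The GC box was found in 24 (66.7%, against 71.2% and 59.5%), the CCAAT box in 16 (44.4%, against 36.7% in both) and TATAAA in 2 (5.56%, against 5.61% and 9.72%). The median promoter was 61.7% G and C, against 65.7% for tested genes. No test was made of these shares, and a match is a description of the letters only. The 36 include MED7 and MED26, which did not pass the count minimum. Some of these promoters lie far from the start of the counted interval, by 187 kb for INTS12 and 16.2 kb for MED7. The distance was 11.7 kb for MED15 and 6.81 kb for MED24.

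In the kinase module, which was read in all 7 genes, fold changes spread from CCNC at one end to MED12 at the other. CCNC read 74.9 and 62.8 CPM with DMSO and 82.5 and 92.4 with dTAG. Both dTAG libraries lay above both DMSO libraries, and the log2 fold change was 0.35 ± 0.094 (SE, adjusted p = 0.032). The call was lost without dTAG replicate 1 (log2 fold change 0.43, adjusted p = 0.20) or dTAG replicate 2 (0.26, adjusted p = 0.91), with upper-quartile normalization (0.066) and with an ERCC spike-in factor as a covariate, where the log2 fold change was 0.11 (0.43), or with ERCC totals as library sizes (0.47). It remained after removal of each library's trend on GC content and gene length, at a smaller log2 fold change of 0.18 ± 0.047 (SE, adjusted p = 0.019). That setting called 18.1% of all tested genes.

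CDK8, the module's kinase, read 168 and 137 CPM with DMSO and 180 and 185 with dTAG, a log2 fold change of 0.26 ± 0.096 (SE, adjusted p = 0.092). Its paralog CDK19 read 104 and 90.1 with DMSO and 87.7 and 99.9 with dTAG, a log2 fold change of -0.05 ± 0.092 (adjusted p = 0.75). The CDK8 libraries separated by group without passing the threshold, and those of CDK19 overlapped. MED12, which activates the kinase, read 19.6 and 19.2 CPM with DMSO and 15.1 and 15.8 with dTAG, and its log2 fold change of -0.33 ± 0.115 had an adjusted p of 0.075. MED12L, its paralog, read 108 and 92.4 with DMSO and 104 and 105 with dTAG (0.06). MED12 was thus lower in both dTAG libraries while the MED12L groups overlapped.

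MED13 and MED13L, alternative subunits that tether the kinase to the core, were the most counted genes of either complex. MED13L alone took 30.3% to 35.7% of all Mediator counts in a library. It read 1135 and 916 CPM with DMSO and 1191 and 1266 with dTAG, a log2 fold change of 0.26 ± 0.119 (SE, adjusted p = 0.17). MED13 read 378 and 321 with DMSO and 377 and 393 with dTAG (0.14, adjusted p = 0.38). In both genes the gap between DMSO libraries was larger than that between groups: DMSO replicate 2 was lower than replicate 1 by a log2 difference of -0.31 for MED13L and -0.23 for MED13. DMSO replicate 2 was the lower DMSO library for all 7 genes of the module, and the higher one for 6487 of all 12612 tested genes. All of the module but MED12 were under 40% GC. Over all tested genes under 40%, the median log2 ratio of DMSO replicate 2 to replicate 1 was -0.20. Without DMSO replicate 1, log2 fold changes were 0.48 for CCNC, 0.41 for CDK8, 0.42 for MED13L and 0.26 for MED13. They were 0.17 for MED12L, 0.06 for CDK19 and -0.32 for MED12.

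**Figure D3:**
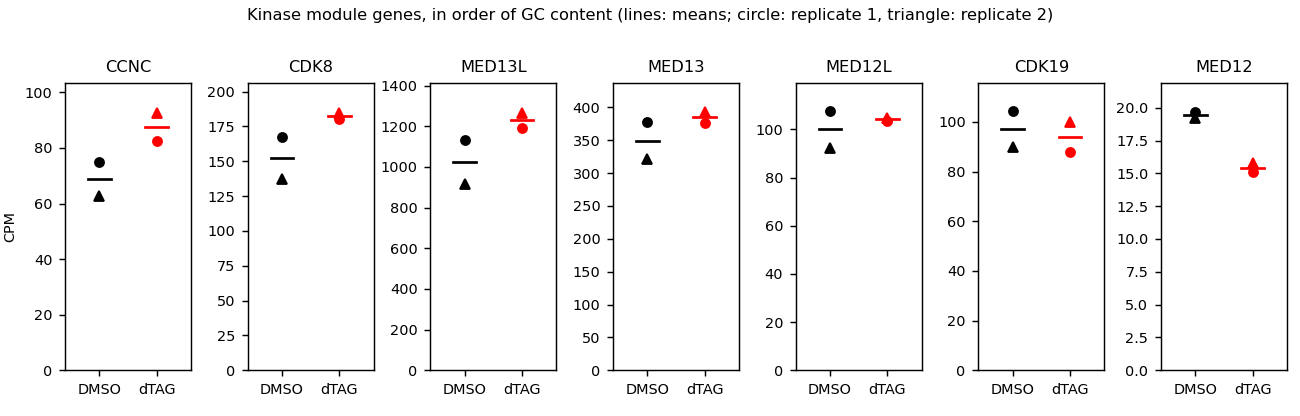
CPM of the 7 kinase module genes in each library, from the lowest to the highest GC content of the gene, each axis from 0. Black marks are DMSO and red marks dTAG, circles replicate 1 and triangles replicate 2, and lines are group means; CCNC at the left is higher in both dTAG libraries and MED12 at the right is lower in both.

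Ratios of paralogs within a library do not depend on its scaling. The level of CDK19 per length relative to CDK8 was 0.456 and 0.482 with DMSO and 0.357 and 0.397 with dTAG. That of MED12L relative to MED12 was 0.372 and 0.327 with DMSO and 0.468 and 0.453 with dTAG, and that of MED13L relative to MED13 was 1.14 and 1.08 with DMSO and 1.20 and 1.22 with dTAG. INTS6L, a paralog of INTS6 outside the 48, stood at 0.0767 and 0.0869 of INTS6 with DMSO and 0.0685 and 0.0711 with dTAG. In each of the 4 ratios the groups did not overlap, and the share of other gene pairs for which this holds was not computed. The log2 difference between groups for MED12L relative to MED12, whose genes are 38.8% and 51.1% GC, was 0.40, and it was 0.17 with the GC and length trends removed. For CDK19 relative to CDK8 it was -0.32 and -0.26. For MED13L relative to MED13 it was 0.12 and 0.13, and for INTS6L relative to INTS6 it was -0.23 and -0.17. The exact two-sided permutation test gave p = 0.333 for each, the smallest that 2 against 2 libraries can give, so these differences could not be tested at 0.05.

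In the head, where Mediator contacts Pol II, none of 7 genes was called, and estimates ran from -0.24 to 0.33. MED17 was highest, with 5.45 and 5.37 CPM with DMSO and 6.15 and 7.45 with dTAG (0.33 ± 0.162, adjusted p = 0.20). MED11, the shortest gene of the set, was lowest, with 2.79 and 4.19 with DMSO and 2.90 and 3.01 with dTAG (-0.24 ± 0.212). The MED11 libraries overlapped, with the widest DMSO gap of any of these genes, while those of MED17 did not overlap. MED8, a head subunit next to MED17 in estimate, read 12.5 and 13.2 CPM with DMSO and 15.2 and 16.7 with dTAG, a log2 fold change of 0.31 ± 0.123 (adjusted p = 0.11). It was called once the GC and length trends were removed, at 0.39 (adjusted p = 0.0095), in a setting that called 18.1% of all tested genes.

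The middle module, which also contacts Pol II, had the narrowest range of the modules with 3 or more tested genes, from -0.10 to 0.09 over 7, none called. MED21 read 48.9 and 48.4 CPM with DMSO and 51.1 and 52.5 with dTAG, and MED10 read 25.4 and 29.3 with DMSO and 27.3 and 23.5 with dTAG. MED14, the scaffold, read 65.5 and 54.6 with DMSO and 65.4 and 66.4 with dTAG (0.13, adjusted p = 0.36), so that only DMSO replicate 2 stood apart. Of the tail, which binds activators, none of 9 genes was called, with 6 estimates below 0. MED16 was lowest, at 26.7 and 29.7 CPM with DMSO and 22.8 and 23.1 with dTAG (-0.30 ± 0.105, adjusted p = 0.081), and MED27 highest, at 210 and 199 with DMSO and 218 and 219 with dTAG (0.096). Both dTAG libraries lay below both DMSO libraries for MED16, as for 30.7% of all tested genes. They lay above both for MED27, as for 28.1%. With the GC and length trends removed, MED16 was at -0.02 (adjusted p = 0.86).

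In Integrator, INTS1 was the only gene called. It read 62.6 and 65.7 CPM with DMSO and 52.8 and 48.5 with dTAG, a log2 fold change of -0.34 ± 0.088 (SE, adjusted p = 0.023). Both dTAG libraries lay below both DMSO libraries. The call was lost without dTAG replicate 1 (log2 fold change -0.40, adjusted p = 0.27) or dTAG replicate 2 (-0.28, adjusted p = 0.89). It was also lost after removal of the GC and length trends, where the log2 fold change was -0.07 (0.44), and the sign turned with ERCC totals as library sizes (0.31, adjusted p = 0.63), a scaling that put the median of all tested genes at 0.63. INTS1 lay below that median.

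The rest of the backbone and shoulder, on which the other modules sit, spread to both sides. INTS5 read 11.7 and 12.6 CPM with DMSO and 10.1 and 8.01 with dTAG (-0.42 ± 0.143, adjusted p = 0.071), and INTS7 read 140 and 127 with DMSO and 154 and 164 with dTAG (0.25 ± 0.087, adjusted p = 0.079). Neither overlapped between groups and neither passed the threshold. INTS5 shares its strand with the overlapping ENSG00000255432, and how reads in both were assigned is not stated. INTS12 read 25.6 and 22.9 CPM with DMSO and 28.0 and 28.6 with dTAG (0.23, adjusted p = 0.17).

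In the cleavage module, INTS11, the endonuclease, read 29.3 and 33.4 CPM with DMSO and 25.2 and 25.9 with dTAG (-0.29 ± 0.104, adjusted p = 0.083). INTS4, the scaffold of that module, read 107 and 99.5 with DMSO and 112 and 114 with dTAG (0.13), and INTS9, the inactive partner of INTS11, had a log2 fold change of 0.056. None of the 3 was called, and INTS11 was at -0.02 (adjusted p = 0.88) with the GC and length trends removed. INTS6, which brings PP2A to Integrator, read 165 and 133 with DMSO and 151 and 161 with dTAG (0.06, adjusted p = 0.69), with both dTAG libraries between the DMSO libraries.

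Among the auxiliary subunits, INTS15 read 29.4 and 32.3 CPM with DMSO and 25.3 and 25.7 with dTAG (-0.28 ± 0.102, adjusted p = 0.094), and INTS10 read 61.5 and 56.6 with DMSO and 63.9 and 65 with dTAG (0.13). INTS13 and INTS14 stood at 0.10 and 0.09, and INTS3, which joins Integrator to single-stranded DNA binding proteins, at 0.009. Of these 5, none was called. Both dTAG libraries lay below both DMSO libraries for INTS15, as for 30.7% of all tested genes. They lay above both for INTS10 and INTS14, as for 28.1% of all tested genes. Together the 15 genes summed to 1142 and 1061 CPM with DMSO and 1128 and 1150 with dTAG, and the 31 Mediator genes to 3334 and 3018 with DMSO and 3421 and 3549 with dTAG.

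**Figure D4:**
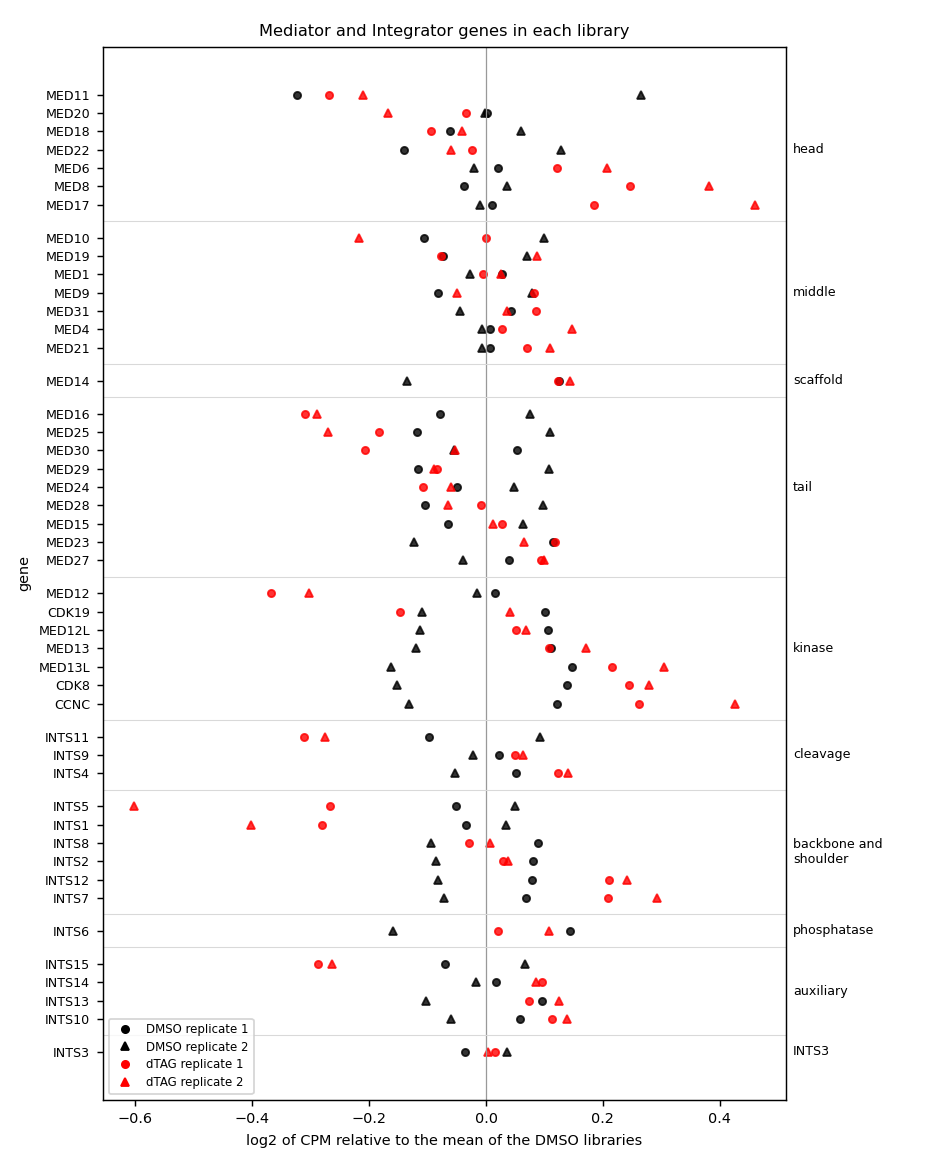
Log2 CPM of each tested gene in each library, relative to the mean of its 2 DMSO libraries, grouped by module, with colors and symbols as in the plot of levels. The red marks of CCNC lie to the right of both black marks, those of INTS1 to the left, and for 22 genes black and red overlap.

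Within these genes, the direction of the estimate went with base composition. Of the 17 genes under 40% GC over the gene interval, 15 had a log2 fold change above 0, with a median of 0.134. Of the 12 genes at 50% GC or more, 11 were below 0, with a median of -0.26, and the 17 genes between had a median of 0.018. All tested genes showed the same order, with medians of 0.127 under 40%, 0.018 between and -0.19 at 50% or more. INTS1, at 63.5%, was the most GC-rich of the 46 and CCNC, at 35.3%, the second least. MED30, at 34.6%, was the one gene with less GC, and it went the other way, at -0.13.

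Spearman's rho between fold change and GC content was -0.73 over the 46 genes and -0.56 over all 12612, and that with gene length was 0.48 and 0.42. In the kinase module the 7 genes fell in exact order, with CCNC at the lowest GC content and MED12, at 51.1%, at the highest (rho = -1). The same property went with the difference between the 2 DMSO libraries, where rho between GC content and the log2 ratio of replicate 2 to replicate 1 was 0.85 over the 46 genes and 0.75 over all. These are correlations across genes that share 4 libraries, and genes are not independent replicates. The part of GC content in the differences between groups was not tested.

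After the trends on GC content and length were removed within each library, the medians of the 3 GC classes were -0.004, 0.004 and -0.03 for the 46 genes. CCNC (0.18, adjusted p = 0.019) and MED8 (0.39, 0.0095) were then called higher. CDK19 (-0.17, 0.037), INTS6 (-0.12, 0.043) and MED30 (-0.30, 0.024) were called lower. These are 5 of 46 (10.9%), against 18.1% of all tested genes under the same setting, and of the calls without this step only CCNC was among them. INTS6 had a positive estimate without it.

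**Figure D5:**
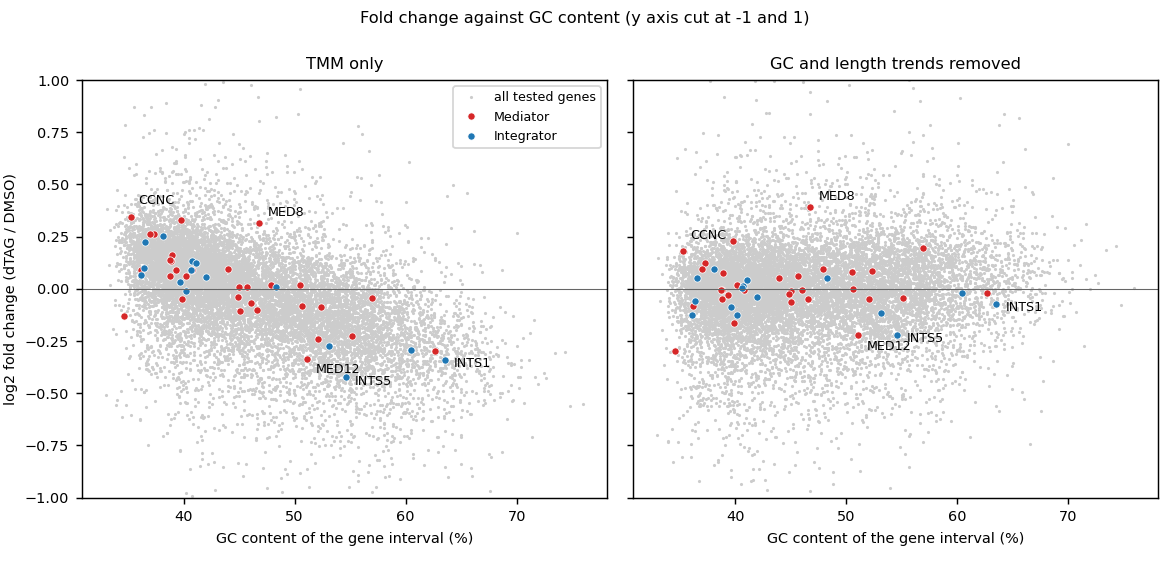
Log2 fold change, dTAG against DMSO, against GC content of the gene interval for all 12612 tested genes (gray), Mediator genes (red) and Integrator genes (blue), on the left with TMM scaling only and on the right with the GC and length trends removed. The axis leaves out 22 genes on the left and 16 on the right beyond a log2 fold change of 1, and the slope on the left, with rho = -0.73 over the 46 genes, is no longer seen on the right.

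Of 9 genes for partners (INTS6L, NABP1, NABP2, INIP, the PP2A subunits PPP2R1A, PPP2CA and PPP2CB, BRAT1 and WDR73), 8 passed the count minimum and none was called by edgeR's quasi-likelihood test, against 7.10% of all tested genes, with 1 (12.5%) at an unadjusted p under 0.05, against 26.6% of all. That one was BRAT1, which assembles with the endonuclease, at 38.7 and 43.95 CPM with DMSO and 34.9 and 31.8 with dTAG (-0.31, adjusted p = 0.062). PPP2CA had 3 to 15 counts and overlaps another gene on its strand. Of the 12 Pol II subunit genes, 2 were called lower (16.7%, against 3.66% of all tested genes), POLR2J (-0.46 ± 0.134, adjusted p = 0.045) and POLR2L (-0.37 ± 0.106, adjusted p = 0.039). The median of the 12 was -0.16, and the called pair had 55.1% and 61.1% GC. POLR2J has near-identical copies in the genome, so its count is uncertain. Both calls were lost with the GC and length trends removed, at -0.24 for POLR2J (adjusted p = 0.094) and -0.07 for POLR2L (adjusted p = 0.43), and POLR2E was then called higher at 0.18 (adjusted p = 0.040). Of the 5 genes for SNAPc, the complex that initiates small nuclear RNA transcription, 1 was called lower (20%, against 3.66% of all tested genes). This was SNAPC2 (-0.49 ± 0.148, adjusted p = 0.049, 64.2% GC), and with the trends removed it was at -0.16 (adjusted p = 0.39).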

How the data were processed

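Nascent RNA was measured by TT-Seq in 2 DMSO and 2 dTAG libraries, grouped by the labels. The values are raw counts, deposited without normalization: the authors trimmed reads (Trim Galore 0.6.4, per the submitters' processing notes), mapped them to hg38 with STAR and took counts with featureCounts (Subread 1.6.3) along the whole of each protein-coding gene and for ERCC spike-ins. The settings for strand and for overlapping genes are not given in the sources used here. Of the 46 tested genes, 14 overlap another gene.

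The fit used edgeR 4.0.16 in R 4.3.3, with TMM scaling (factors 0.970 to 1.05), at least 50 counts in all 4 libraries, the two-sided quasi-likelihood F test and Benjamini-Hochberg adjustment over 12612 genes, with calls at an adjusted p under 0.05. The authors name EDASeq, RUVSeq and edgeR 3.40.1 for spike-in normalization. The function and number of factors are not given in the sources used here (the authors' scripts were not used here), so TMM was used and spike-in scalings were alternatives. CPM are counts over TMM-scaled library totals. Standard errors were derived from the fold change and its F statistic, and 95% intervals from the moderated degrees of freedom. The libraries held 93105627 to 102314741 gene counts each. GC content was computed over hg38 gene intervals, and trends were removed per library by lowess (span 0.3). TMM with either edgeR test, upper-quartile scaling, DESeq2, the replicate block, a left-out library and the trend removal were tested on simulated data, and the ERCC scalings were not. DESeq2 1.42.0 was an alternative, as were other scalings and filters, a replicate block and leaving out each library.

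The members, gene lists and modules were chosen with earlier results of these data known. Named with per-library values were the called genes, the highest and lowest fold change in each module, the highest and lowest level per kilobase, paralog pairs and genes under the count minimum. MED8, MED13, INTS9, INTS12, INTS13, INTS14, INTS3 and MED30 were added after their values were seen.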

Additional observations from a re-analysis of the deposited data

How the results depend on the processing

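The number of genes called moved with the setting, and no call held under all of them. CCNC and INTS1 were each called under 9 of 15 alternatives. Among the 15 is the replicate block with crossed numbers, which was chosen after seeing the data and called both. Counts below are given as all (higher and lower), beside the percentage of all tested genes called. Upper-quartile normalization called 6 (0 and 6, beside 8.91%), with medians of -0.057 for Mediator and -0.017 for Integrator. ERCC totals as library sizes called 0 (0 and 0, beside 0%), with 2 at an unadjusted p under 0.05 and medians of 0.68 and 0.68, beside 0.63 for all genes. INTS1 read 0.31 there. The ERCC factor as a covariate called 4 (0 and 4, beside 10.5%), with medians of 0.036 and -0.064, and INTS6 at -0.19. The likelihood ratio test called 5 (2 and 3, beside 12.6%). Without a count filter, 2 were called lower and 3 in all (beside 8.12%). DESeq2 called 2 (beside 10.1%) and moved the Mediator median to 0.030. Removal of the GC and length trends called 5 (2 and 3, beside 18.1%), with medians of -0.0044 and -0.040, and INTS6 at -0.12.

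With the replicate block, 0 were called (0 higher and 0 lower, beside 340 of 12612 genes), with 9 at an unadjusted p under 0.05, and CCNC was at 0.35 (adjusted p = 0.078) and INTS1 at -0.34 (0.096). With the replicate block and the trends removed, 5 were called (2 and 3, beside 20.8%), with medians of -0.0040 and -0.040 and INTS6 at -0.12. Without trend removal, libraries of the same number did not deviate together (correlation -0.247). The log2 ratio of replicate 2 to replicate 1 followed GC content in opposite directions in the groups. Over all tested genes, rho was 0.75 with DMSO and -0.43 with dTAG. The correlation therefore cannot decide whether libraries of the same number share a replicate effect. With the numbers crossed in the replicate block, a choice made after seeing the data, 13 were called (6 and 7, beside 25.3%).

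Leaving out each library in turn gave 0 to 22 calls, with 0 to 14 higher and 0 to 8 lower, a Mediator median of 0.027 to 0.039 and an Integrator median of 0.0018 to 0.108. In each such fit the lone library was assumed to vary like the other group. The 22 came without DMSO replicate 1 (beside 43.5%), 4 without DMSO replicate 2 (beside 11.9%) and 0 without either dTAG library (beside 1.09% and 0.547%). The cause of these changes was not tested. A minimum of 10 counts, and the 32 genes that overlap no other gene, gave 2 calls each. The 3 widest intervals were those of MED11, MED17 and INTS5, the tested genes with the fewest counts, but MED13L, with the most, had a standard error of 0.119.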

Other observations

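INTS2 and MED13 lie next to each other on the same strand of chromosome 17, with 14.6 kb between their intervals. Their log2 fold changes were 0.033 and 0.14. INTS13 and MED21 lie 84.2 kb apart on chromosome 12, with log2 fold changes of 0.10 and 0.09.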
